A study of Mus musculus with 20 samples.

Results

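Neutrophils are short-lived phagocytes that are built in bone marrow and carry ready-made killing proteins in granules. Their 9 transcripts S100a8, S100a9, Ltf, Camp, Ngp, Elane, Mpo, Lcn2 and Retnlg were followed here in the intervertebral disc, in its gel-like centre, the nucleus pulposus (NP), and in its outer fibrous ring, the annulus fibrosus (AF). The genes were chosen by symbol, and all 9 were found among the 51789 genes of the deposited expression table. All 9 were at 1 FPKM or more in every library and so were among the 16383 genes tested. The mice were BL6. Intraperitoneal injections began at the age of 18 months, went on for 6 months, and tissue was taken at 24 months. Vehicle mice received DMSO, and treated mice received MDL-800 in DMSO, so that every group had been given the solvent. MDL-800 is a small-molecule activator of SIRT6, a NAD-dependent deacylase that acts on chromatin. The labels list vehicle and MDL-800 also as genotype, and name no transgene or deletion. Each of the 4 groups (vehicle and MDL-800, each in NP and in AF) held 5 libraries of total RNA, and each library is named by the number in its sample title. The labels do not say whether a library came from 1 mouse or from several, or which NP and AF libraries came from the same mouse, so p-values measure the spread between these libraries only.

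Granule proteins are made in a fixed order while a neutrophil matures. Promyelocytes make the primary granule proteins, among them the heme enzyme myeloperoxidase (Mpo) and neutrophil elastase (Elane), a serine protease. Myelocytes and metamyelocytes then make the secondary granule proteins: lactoferrin (Ltf), which binds iron; the cathelicidin antimicrobial peptide (Camp); neutrophilic granule protein (Ngp), a cathelin relative; and lipocalin 2 (Lcn2), which takes up bacterial siderophores. S100a8 and S100a9 encode the subunits of calprotectin, a calcium- and metal-binding complex that fills the neutrophil cytosol and signals through TLR4 and RAGE once released. Retnlg encodes resistin-like gamma, a secreted protein found in mouse neutrophils and their marrow precursors. Lcn2 is the member best known outside neutrophils, since epithelial and cartilage cells also make it under inflammatory stimulation. The inner disc has no blood vessels, whereas the vertebrae beside it hold marrow.

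All 9 genes are protein-coding. In GRCm38, S100a8 (chr3:90668978-90670035) and S100a9 (chr3:90692632-90695721) were neighbours separated by 22.6 kb. Camp (chr9:109847379-109849617), Ngp (chr9:110419747-110423012) and Ltf (chr9:111019271-111042767) lay within 1195.4 kb on chromosome 9. The other members were scattered: Elane at chr10:79886247-79888215, Mpo at chr11:87793581-87804413, Lcn2 at chr2:32384633-32388252 and Retnlg at chr16:48872621-48874496.

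Because the 9 transcripts moved together across libraries, the DNA upstream of their starts was read from the RefSeq promoter table (GRCm38.p6), which held all 9 genes. The 250 bases before each RefSeq start were searched on both strands for 4 short motifs of factors that act in blood cells or at core promoters. GENCODE places some starts further upstream. By its positions the whole window of Lcn2 lies inside the gene, as do 203, 161 and 93 of the 250 bases of Mpo, Camp and S100a8 and smaller parts of Ngp, Elane and Ltf. Both Lcn2 matches and the TATAAA of S100a8 given here fall in such bases. The C/EBP motif TTGCNNAA was found in 5 of 9 members (S100a9, Ltf, Ngp, Lcn2 and Retnlg), and in 9.57% of the 32536 distinct windows of this length. The PU.1-type motif GAGGAA was found in 5 of 9 members (S100a8, Ltf, Elane, Mpo and Lcn2) and in 23.4% of all windows. The GATA motif AGATAA lay in 2 of 9 (S100a9 and Ltf) against 9.97%, and TATAAA in S100a8 alone, 30 bases before its start, against 12.3%. Neither of the first 2 motifs was in the window of Camp. Ngp held 2 C/EBP matches, 138 and 11 bases before its start, and Mpo held 2 PU.1-type matches, at 247 and 224. Matches are a description of the letters and show no binding.

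These stretches are shown for 6 members, 5′ to 3′ on the strand of the gene, to set secondary granule and calprotectin genes beside primary granule genes. Capitals mark matches to the C/EBP or PU.1-type motif, on either strand. Bases that GENCODE places inside the gene were left off at the 3′ end, which removes the match of Ngp at 11 bases and a match of S100a8 at 36 bases.
S100a9 (chr3:90695722-90695971, minus strand): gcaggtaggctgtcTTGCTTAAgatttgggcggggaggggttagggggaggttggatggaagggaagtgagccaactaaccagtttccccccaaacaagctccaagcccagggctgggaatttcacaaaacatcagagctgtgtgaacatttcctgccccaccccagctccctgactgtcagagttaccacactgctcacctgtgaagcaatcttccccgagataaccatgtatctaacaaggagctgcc
Ltf (chr9:111019042-111019270, plus strand): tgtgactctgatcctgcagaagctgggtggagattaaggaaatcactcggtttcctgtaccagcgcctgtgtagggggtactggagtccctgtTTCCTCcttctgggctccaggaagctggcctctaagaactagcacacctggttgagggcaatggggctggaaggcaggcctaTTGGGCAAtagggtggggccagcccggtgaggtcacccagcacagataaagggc
Ngp (chr9:110419558-110419746, plus strand): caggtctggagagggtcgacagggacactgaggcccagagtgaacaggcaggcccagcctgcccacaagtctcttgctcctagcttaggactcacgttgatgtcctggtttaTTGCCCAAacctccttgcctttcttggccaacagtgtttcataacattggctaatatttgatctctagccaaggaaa
S100a8 (chr3:90668821-90668977, plus strand): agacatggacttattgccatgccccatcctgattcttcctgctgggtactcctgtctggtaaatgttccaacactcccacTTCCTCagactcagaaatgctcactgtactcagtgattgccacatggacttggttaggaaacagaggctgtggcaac
Elane (chr10:79886062-79886246, plus strand): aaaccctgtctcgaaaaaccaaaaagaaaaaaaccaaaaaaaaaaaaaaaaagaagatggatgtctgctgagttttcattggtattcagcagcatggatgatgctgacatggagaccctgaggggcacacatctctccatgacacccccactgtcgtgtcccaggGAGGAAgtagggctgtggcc
Mpo (chr11:87793534-87793580, plus strand): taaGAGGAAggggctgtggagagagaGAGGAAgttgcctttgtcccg
Both primary granule genes carried GAGGAA on their own strand and no C/EBP match, and so did S100a8 on the other strand. S100a9, Ngp and Retnlg carried C/EBP matches and no GAGGAA, Ltf and Lcn2 carried both motifs, and Camp neither. C/EBP matches were thus in the secondary granule genes other than Camp and in neither primary granule gene. GAGGAA lay in genes of both classes. Whether the motifs go with the granule classes was not tested.

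Values are FPKM as deposited, a count of fragments corrected for transcript length and library size, divided by a factor for each library between 0.933 and 1.06, and are called scaled FPKM. Differences were tested on log2(scaled FPKM + 1) with limma, and a gene was called at a Benjamini-Hochberg adjusted p under 0.05 over all genes tested. Depth, estimated from the steps between low FPKM values, was 12.6 to 22.0 megareads, and the lowest member value, Elane in an NP library, stood for about 14.8 reads. Most markers matched the tissue labels. All 10 tested NP genes of a list of 12 (T, Krt8, Krt18, Krt19, Car3 and others) were called higher in NP vehicle. Of AF genes (Tnmd, Mkx, Thbs4 and others) 7 of 8 were called lower there. Of all genes tested 21.8% were called higher and 33.9% lower. Between the MDL-800 groups 9 of 10 NP genes were called higher in NP and 6 of 8 AF genes lower, with 25.6% and 37.2% of all genes. The summed NP markers were 25920 to 33040 scaled FPKM in NP libraries and 2515 to 15170 in AF libraries, with AF vehicle library 9 the highest of the AF. Lists of marrow, muscle and vessel genes also differed between the tissues, and are given beside the granule genes further on.

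Calprotectin transcripts were among the most abundant in AF. S100a8 stood at 6722, 4193, 2771, 2997 and 6701 scaled FPKM in AF vehicle libraries 8, 9, 10, 12 and 13. In AF MDL-800 libraries 25, 27, 28, 29 and 30 it was 4867, 2321, 5923, 2567 and 11830. Libraries 8, 13 and 30 were the highest, library 27 the lowest, and the AF groups overlapped throughout. By rank among all genes of a library, S100a8 was between 4 and 12 in AF vehicle and between 4 and 16 in AF MDL-800.

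In NP the same transcript was at 644, 83.6, 111.9, 229 and 1205 scaled FPKM in vehicle libraries 1, 2, 3, 5 and 6. In NP MDL-800 libraries 15, 18, 19, 20 and 22 it was 235, 569.6, 139.6, 71.1 and 606. Vehicle library 6 was highest and MDL-800 library 20 lowest, and all 10 NP libraries lay under all 10 AF libraries. The rank of S100a8 ran from 34 to 979 in NP vehicle and from 123 to 1148 in NP MDL-800. Its mean was 455 ± 476 scaled FPKM (SD, n = 5) in NP vehicle against 4677 ± 1934 in AF vehicle, and 324 ± 248 in NP MDL-800 against 5502 ± 3853 in AF MDL-800. S100a9 had medians of 139.5 (vehicle) and 142 (MDL-800) scaled FPKM in NP, and of 2932 (vehicle) and 3665 (MDL-800) in AF.

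**Figure D1:**
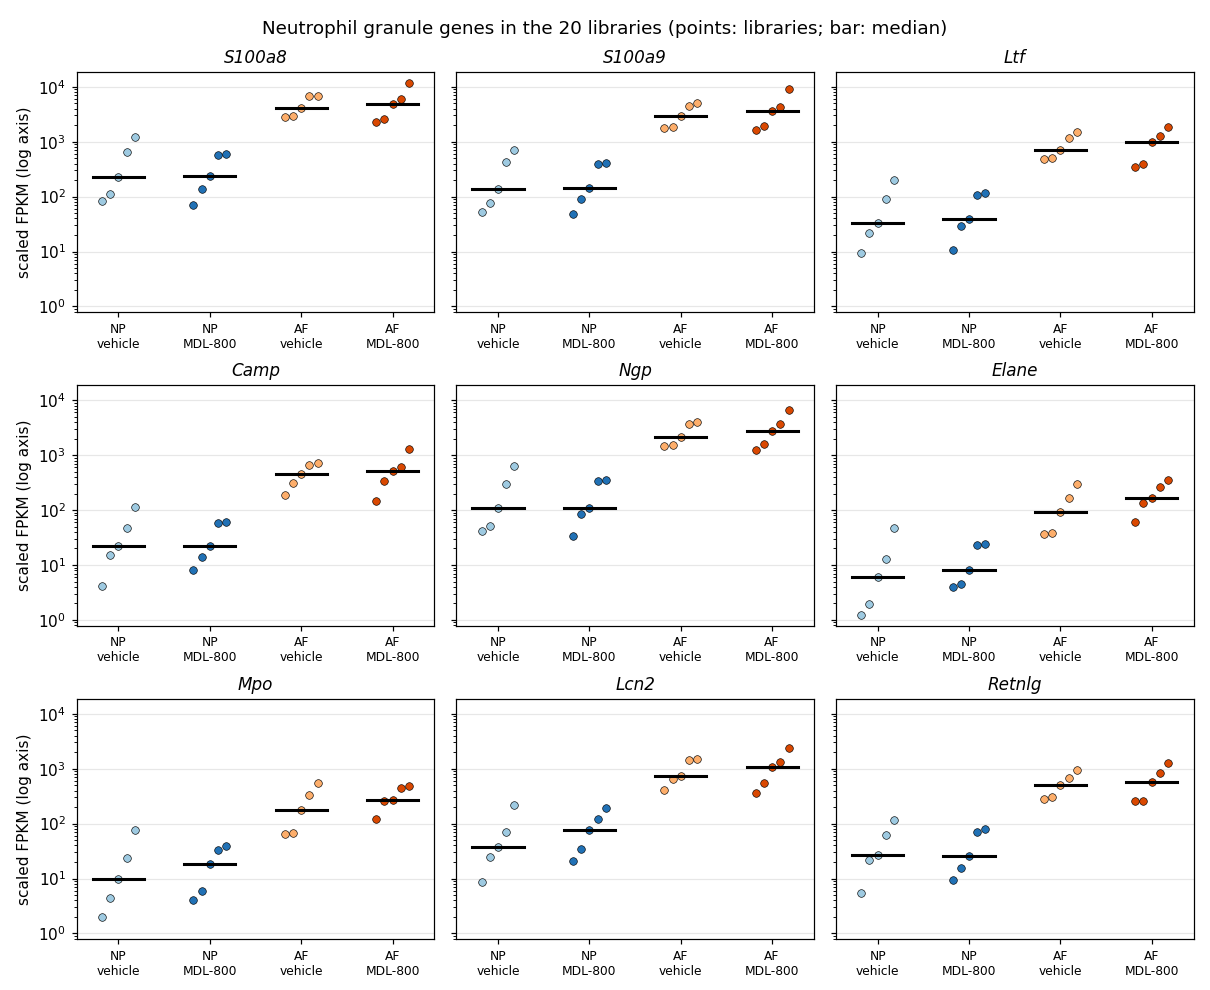
Scaled FPKM (log axis) of the 9 neutrophil granule genes in the 4 groups of 5 libraries; each point is a library and each bar a group median. S100a8 lies between 71.1 and 1205 in NP and between 2321 and 11830 in AF, and the other genes follow the same steps.

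Secondary granule transcripts followed the same pattern. Libraries 1, 2, 3, 5 and 6 of NP vehicle had Ngp at 298, 41.1, 51.6, 110.9 and 635 scaled FPKM. In libraries 8, 9, 10, 12 and 13 of AF vehicle it was 3757, 2139, 1456, 1536 and 3986. The NP and AF values did not overlap, and the NP libraries that were high for S100a8 were high for Ngp. In NP MDL-800 Ngp ran from 34.0 to 355 and in AF MDL-800 from 1227 to 6713. Ltf, the iron binder, ran from 9.52 to 199.5 in NP vehicle, 10.8 to 118.6 in NP MDL-800, 484 to 1507 in AF vehicle and 350.3 to 1870 in AF MDL-800. Camp, the antimicrobial peptide, had medians of 21.9, 22.4, 447 and 522 scaled FPKM in these 4 groups in the same order. Retnlg, with medians of 26.9, 25.7, 505 and 577.5, was at about the level of Camp per length.

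Primary granule transcripts were lower in level. Libraries 1, 2, 3, 5 and 6 of NP vehicle had Mpo at 23.7, 1.95, 4.45, 9.82 and 77.8 scaled FPKM, and it was at 18.0, 39.0, 5.89, 4.13 and 33.1 in NP MDL-800 libraries 15, 18, 19, 20 and 22. In AF it was 539.5, 176, 66.2, 65.2 and 329 in vehicle libraries 8, 9, 10, 12 and 13, and 265.5, 119, 257, 451 and 483 in MDL-800 libraries 25, 27, 28, 29 and 30. NP vehicle library 6 reached into the range of AF vehicle, the only overlap between the tissues for Mpo. Elane behaved alike: it ran from 1.25 to 47.9 in NP vehicle, 3.97 to 23.8 in NP MDL-800, 37.2 to 299 in AF vehicle and 60.6 to 347 in AF MDL-800. Its overlap between vehicle tissues also came from NP vehicle library 6, at 47.9 against 37.2 and 38.8 in AF vehicle libraries 10 and 12.

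All 9 genes were lower in NP vehicle than in AF vehicle, by 11.8 to 19.7 times on the fitted scale. The lower call was given to 9 of 9 members, where 33.9% of all genes tested were called lower. The median difference of the members was -4.03 on the log2 scale, against -0.08 over all genes tested. The S100a8 difference was -3.96 ± 0.68 (SE; limma adjusted p = 0.000589), a 15.6-fold difference, and that of S100a9 was -4.05 ± 0.67 (limma adjusted p = 0.000448). Lcn2 differed most, by -4.30 ± 0.72 (limma adjusted p = 0.000489), and Elane least, by -3.56 ± 0.85 (limma adjusted p = 0.00456). Groups did not overlap for 7 of 9 members, the exceptions being Elane and Mpo, and did not overlap for 41% of all genes tested. For these 7 members the exact permutation p was 0.0079, the smallest that 5 against 5 libraries allow, and for Elane and Mpo it was 0.0238.

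After MDL-800 the tissues stood apart in the same way. All 9 members were called lower in NP MDL-800 than in AF MDL-800, where 37.2% of all genes tested were, and none of the 9 overlapped, against 49.1% of all genes without overlap. The differences ran from -3.77 ± 0.64 for Lcn2 to -4.39 ± 0.65 for S100a9 on the log2 scale (limma adjusted p = 0.000443 and 0.000165). The median of the members was -4.16. In bulk tissue, fewer neutrophils and less of each transcript per neutrophil cannot be told apart.

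The members' share of the summed FPKM showed how large this signal was. The 9 genes made up 1.34% to 3.22% of the sum in AF vehicle and 1.13% to 5.16% in AF MDL-800. In NP they were 0.0360% to 0.558% with vehicle and 0.0335% to 0.290% with MDL-800. Within each tissue the range between libraries was wider than the difference between treatments.

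No member passed the test for MDL-800 in either tissue. In NP, 0 of 9 members were called, with 0.25% of all genes called, and 0 of 9 had an unadjusted limma p under 0.05, against 14.1% of genes. The largest member difference in NP was that of Lcn2, 0.67 ± 0.82 on the log2 scale, with a 95% confidence interval from -1.15 to 2.48 (limma adjusted p = 0.782). S100a8 differed by -0.21 ± 0.82, with an interval from -2.02 to 1.60 (limma adjusted p = 0.944). These intervals hold changes of several fold in both directions, so no bound tighter than that can be set on a treatment difference in NP. The sign of the S100a8 difference rested on single libraries: it was 0.32 without NP vehicle library 6 and 0.23 without NP MDL-800 library 20.

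**Figure D2:**
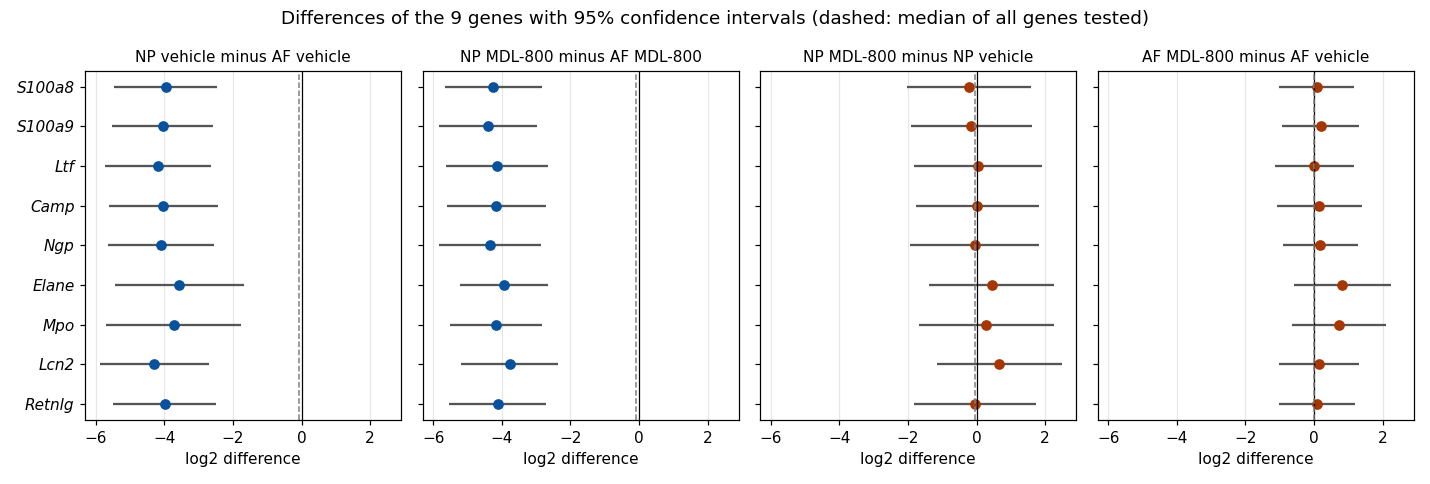
Log2 differences of the 9 genes (points) with 95% confidence intervals (lines) in 4 comparisons; the dashed line is the median of all genes tested. All intervals between tissues lie under 0, and all intervals between treatments span it.

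In AF, 0 of 9 members were called and 0% of all genes were; at an unadjusted limma p under 0.05 there were 0 members and 270 genes, or 1.65%. Elane differed by 0.83 ± 0.64 (interval -0.58 to 2.24) and Mpo by 0.74 ± 0.62 (interval -0.64 to 2.11), with a limma adjusted p of 1 for both. The other 7 members differed by 0.01 (Ltf) to 0.20 (S100a9), and their intervals reached no further than -1.13 and 1.40. No member passed the test for a treatment effect that differs between NP and AF: the interaction ran from -0.45 for Mpo to 0.53 for Lcn2, with a limma adjusted p of 0.9997 for each, and 0 of 16383 genes were called (611, or 3.73%, at an unadjusted p under 0.05).

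Among libraries of the same group the granule genes varied more than most genes. The SD of log2 values in NP vehicle was 1.57 (S100a9) to 1.86 (Mpo), against a median of 0.22 over all genes tested, and for S100a8 it was above that of 99.1% of genes. In NP MDL-800 it was 1.12 (Elane) to 1.42 (Ngp) against 0.17. In AF vehicle it was 0.61 for S100a8 but 1.30 for Elane and 1.36 for Mpo, against 0.27. In AF MDL-800 the order was another: Mpo had the lowest SD of the 9 members (0.81) and Camp the highest (1.16), with Elane at 0.97, against 0.27. The primary granule genes thus varied most in both vehicle groups, whereas Elane varied least in NP MDL-800 and Mpo least in AF MDL-800. This is a description of 5 libraries a group, with no test.

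Members rose and fell together from library to library. Over the 10 NP libraries, with log2 values centred on their group, each of the 8 other genes followed S100a8 with Pearson's r between 0.967 (Retnlg) and 0.998 (S100a9) and Spearman's rho between 0.939 and 0.988. The permutation p for r was 4e-05 or less for each, and the adjusted p over the 16 relations computed was 4.92e-05 or less. With the 2 libraries farthest from the median of S100a8 left out, r stayed between 0.946 and 0.998.

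In AF the primary granule genes had lower r than the others, which rested in part on 1 library. The 6 genes S100a9, Ngp, Retnlg, Ltf, Lcn2 and Camp followed S100a8 with r of 0.997, 0.993, 0.977, 0.976, 0.965 and 0.939 over 10 libraries (adjusted permutation p of 6.86e-05 or less). Elane followed it with r = 0.713 and rho = 0.758 (permutation p = 0.023 and 0.0154, adjusted 0.0245 and 0.0164). Mpo had r = 0.682 and rho = 0.661 (permutation p = 0.0319 and 0.044, adjusted 0.0319 and 0.044). Without the 2 farthest libraries r was 0.587 for Elane and 0.62 for Mpo. Without AF MDL-800 library 29, and with the groups centred anew, r rose to 0.917 for Elane (exact permutation p = 0.000791) and 0.882 for Mpo (exact permutation p = 0.0023). Without library 29 Camp and Lcn2 were at 0.965, Ltf at 0.971, Retnlg at 0.973, Ngp at 0.996 and S100a9 at 0.997. Elane and Mpo thus stayed the lowest there. Camp ran from 0.907 (without AF MDL-800 library 30) to 0.965 over the libraries left out in turn. Leaving out another library gave r of 0.623 to 0.749 for Elane and 0.597 to 0.703 for Mpo, with both lowest without AF MDL-800 library 27 (exact permutation p = 0.0741 and 0.0891). The difference between these correlations was not tested.

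Ratios compare the genes within a library. S100a9 over S100a8 was between 0.575 and 0.756 in all 20 libraries, the narrowest ratio of the 8. Mpo over Elane, both primary granule genes, was between 1.04 and 2.26. Mpo over S100a8 ran more widely: 0.0218 in AF vehicle library 12 and 0.176 in AF MDL-800 library 29. In library 29 Mpo was at 451 and S100a8 at 2567 scaled FPKM, so Mpo was near its AF maximum while S100a8 was near its AF minimum. The next highest ratio in AF MDL-800 was 0.0546, and Elane over S100a8 in library 29 was 0.105 against 0.0339 for the next.

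Other promyelocyte genes of library 29 were high against S100a8 too. These genes were chosen after their values were seen. Prtn3, encoding proteinase 3, was at 0.0556 of S100a8 there and at 0.00582 to 0.0307 in the other 9 AF libraries. Ctsg, encoding cathepsin G, was at 0.0656 against 0.00828 to 0.035, and Ms4a3, a marker of granulocyte and monocyte progenitors, at 0.0274 against 0.00762 to 0.0180. Fcnb, encoding ficolin B, was at 0.0286 against 0.0103 to 0.0169. The proliferation gene Mki67, at 0.0203, lay within its range of 0.0119 to 0.0300 in the others. Macrophage markers, looked at after the values were seen, summed to 809.8 scaled FPKM in library 29, with S100a8 at 2567. These values were 777.5 and 2997 in AF vehicle library 12, and 510.7 and 2321 in AF MDL-800 library 27. A high level against S100a8 in library 29 was thus not particular to promyelocyte genes. Skeletal muscle markers summed to 11290 scaled FPKM in library 29, the highest in AF, and to 10550 in AF vehicle library 12, which had the lowest Mpo over S100a8. The part of muscle tissue in these ratios was not tested.

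**Figure D3:**
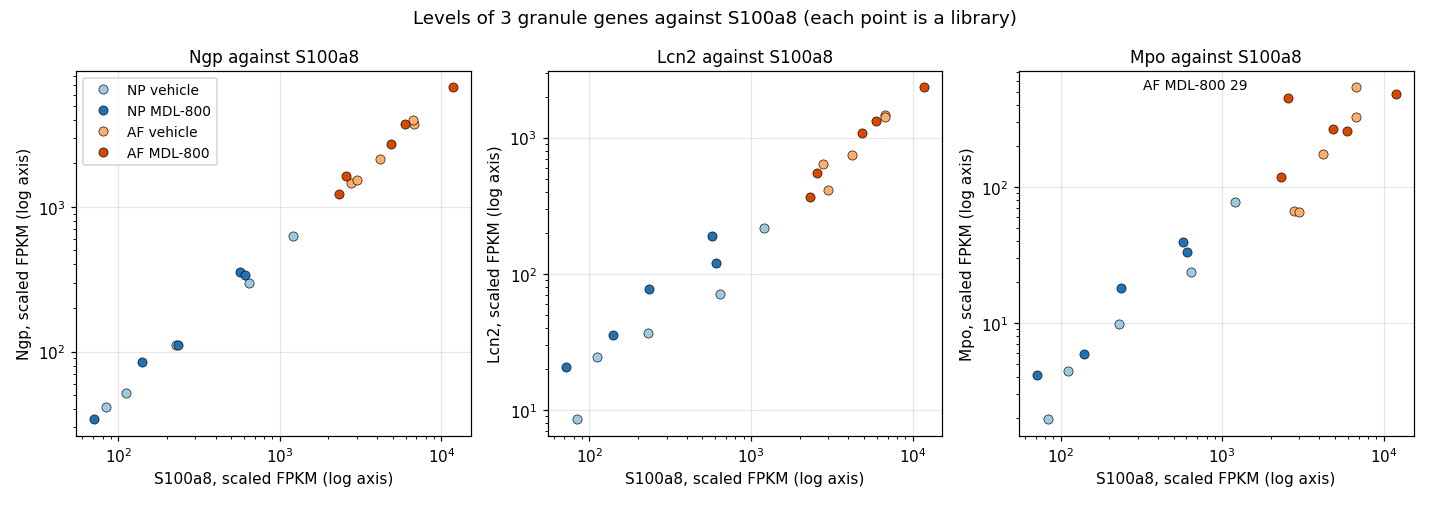
Scaled FPKM of Ngp, Lcn2 and Mpo (vertical, log axis) against S100a8 (horizontal, log axis) in 20 libraries coloured by group. Ngp keeps to a line over both tissues, Lcn2 in NP MDL-800 lies above NP vehicle at like S100a8, and for Mpo the labelled AF MDL-800 library 29 lies above the AF libraries of like S100a8.

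Lcn2 over S100a8 was higher in treated NP, and so was the ratio of every other member to S100a8. The comparison of Lcn2 was picked after the values were seen. Libraries 1, 2, 3, 5 and 6 of NP vehicle had Lcn2 at 71.5, 8.52, 24.2, 36.8 and 215 scaled FPKM, and it was at 77.3, 189.7, 35.2, 20.8 and 120.3 in NP MDL-800 libraries 15, 18, 19, 20 and 22. Its level did not pass the test between these groups (above). Its ratio to S100a8 was 0.111, 0.102, 0.217, 0.161 and 0.178 in vehicle and 0.329, 0.333, 0.252, 0.292 and 0.199 in MDL-800. The ratios overlapped only through vehicle library 3 and MDL-800 library 22. The ratio was 1.87 times higher in MDL-800, a log2 difference of 0.90 with an exact permutation p of 0.0159. Over the 32 ratio tests of this kind the adjusted p was 0.2029, and 0 of 32 passed. With each library left out in turn the difference stayed between 0.77 and 1.04.

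In AF the same ratio differed by 0.06 on the log2 scale (exact permutation p = 0.7063), with medians of 0.213 in vehicle and 0.214 in MDL-800. The difference between the tissues' treatment effects was 0.84, with an exact permutation p of 0.0377 over 63504 regroupings within tissues. Such regroupings assume no treatment difference in either tissue. A small p can therefore come from the picked NP difference alone, and it cannot show that the effects differ. Against other secondary granule genes Lcn2 was higher in NP MDL-800 too, with and without overlap. These ratios use the same Lcn2 values, and Ltf, Camp and Ngp followed S100a8 in NP with r of 0.989, 0.974 and 0.997. They therefore largely repeat the comparison with S100a8 and add no separate evidence. Lcn2 over Ltf was 0.783 to 1.10 in vehicle and 1.13 to 1.98 in MDL-800, and Lcn2 over Camp 1.51 to 2.03 and 2.04 to 3.45, without overlap (exact permutation p = 0.0079 for each, unadjusted). Lcn2 over Ngp was 0.207 to 0.470 in vehicle and 0.358 to 0.699 in MDL-800, which overlap (exact permutation p = 0.0397, unadjusted). Against primary granule genes it was not seen: Lcn2 over Elane differed by 0.06 (exact permutation p = 0.8254) and Lcn2 over Mpo by 0.32 (exact permutation p = 0.1746). Elane over S100a8 was itself higher in NP MDL-800, by 0.84 on the log2 scale (exact permutation p = 0.0317, adjusted 0.2029). Mpo over S100a8 was higher by 0.58 (exact permutation p = 0.0794, adjusted 0.363). The remaining ratios to S100a8 were higher by 0.06 (S100a9) to 0.27 (Ltf). The direction was thus not particular to Lcn2, which had the largest difference.

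**Figure D4:**
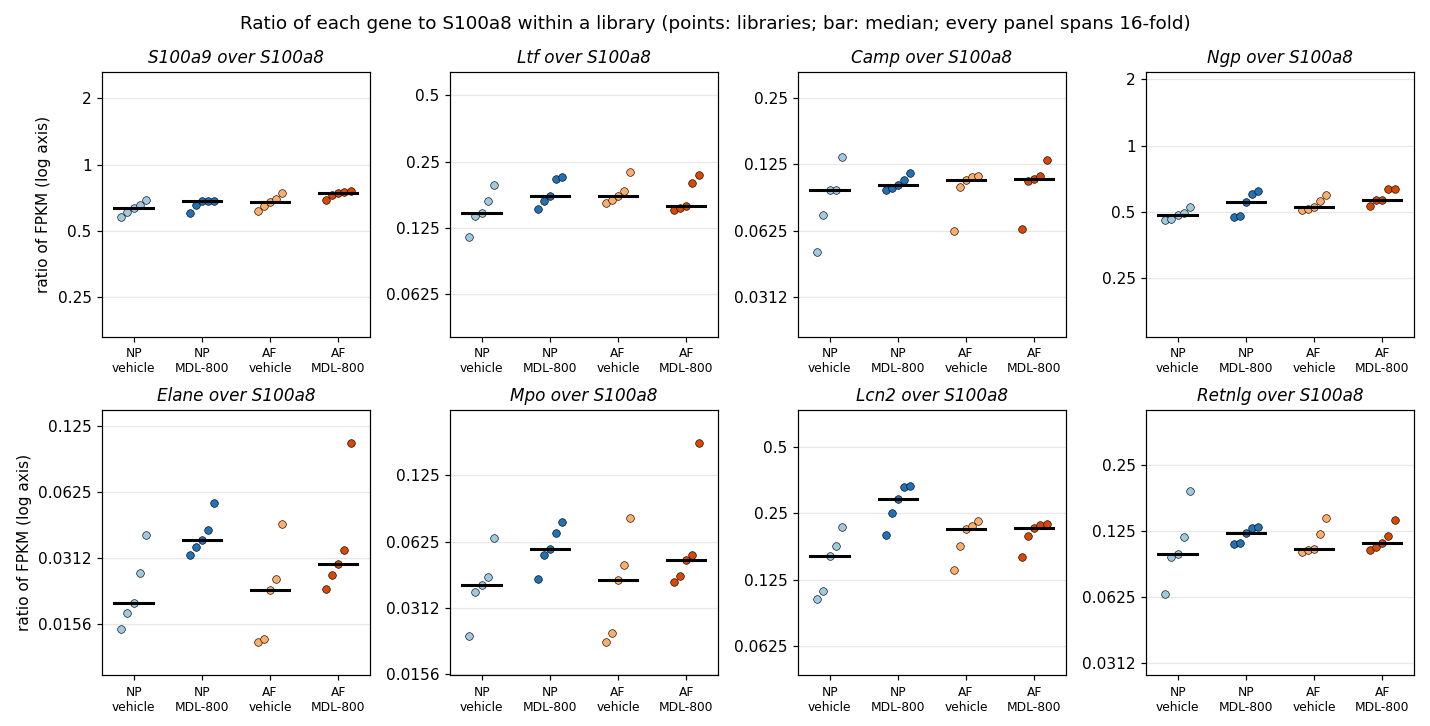
FPKM ratio of each of 8 genes to S100a8 within a library (log axis, 16-fold in every panel), by group; points are libraries and bars medians. S100a9 and Ngp vary least, Lcn2 in NP has medians of 0.161 (vehicle) and 0.292 (MDL-800), and AF MDL-800 library 29 is the top point for Elane and Mpo.

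The wider granulocyte programme was read from lists of genes chosen with earlier results of these data known. A list of 11 other genes was headed primary granule and promyelocyte, though not all of them encode primary granule proteins. All 11 were called lower in NP vehicle than in AF vehicle, with a median difference of -3.22 on the log2 scale. For this and the lists that follow, 33.9% of all genes tested were called lower in NP vehicle. Among them Hp, encoding haptoglobin, which is stored in granules as well as made by liver, differed by -4.09 and Serpinb1a, an inhibitor of granule serine proteases, by -3.14 (limma adjusted p = 0.000137 and 0.000155). Igsf6, an immunoglobulin-superfamily gene of myeloid cells, differed by -3.22 (limma adjusted p = 0.000145). Of 24 secondary and tertiary granule genes, 23 were called lower, with a median of -2.98. They included the gelatinase Mmp9 (-3.76), the lysozyme gene Lyz2 (-4.35) and Cybb (-3.86), the catalytic subunit of the phagocyte NADPH oxidase. Mmp9 is also an osteoclast gene and Lyz2 also a macrophage gene. The gene not called was Anxa1, at 471 to 711.5 scaled FPKM in NP vehicle and 440 to 567.5 in AF vehicle, a gene that many cell types express.

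Surface and signalling genes of mature neutrophils were lower in NP without exception, 22 of 22, with a median of -3.38. The share of all genes tested called lower was 33.9%. The 3 with the smallest p were Mxd1 (-2.57), a MYC antagonist of differentiating cells, Alox5ap (-3.92), needed for leukotriene synthesis, and Fcgr3 (-4.02), an Fc receptor. Ly6g, the usual surface marker of mouse neutrophils, ran from 0.794 to 12.8 scaled FPKM in NP vehicle and from 25.0 to 75.8 in AF vehicle. Proliferation genes were lower in 8 of 8 (median -2.94), with Tpx2 at -2.38, Mki67 at -3.47 and Top2a at -3.02. In NP MDL-800 against AF MDL-800 the counts called lower were 11 of 11, 23 of 24, 22 of 22 and 8 of 8. There the share of all genes tested was 37.2%.

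Granulocyte transcription factors were called lower in NP vehicle in 10 of 11 (median -2.17), against 33.9% of all genes tested. In NP MDL-800 they were called lower in 9 of 11 (median -2.24), against 37.2%. The gene lost was Cebpd (-0.79, limma adjusted p = 0.0623). Cebpa, which starts the granulocyte programme, differed by -2.99, Runx1 by -2.17 and Irf8, which turns progenitors toward monocytes, by -3.13. The factors named for the motifs searched above, chosen after their values were seen, were lower too: Spi1, which encodes PU.1, by -3.88 and Cebpe, which drives secondary granule genes, by -2.81. Klf5 went the other way, 1.14 higher in NP (limma adjusted p = 0.00571), at 16.5 to 57.7 scaled FPKM in NP vehicle against 10.3 to 19.4 in AF vehicle.

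Genes for ligands and receptors were mixed. Of 20 listed, 14 were tested, 8 were called lower in NP vehicle and 3 higher. Of all genes tested 33.9% were called lower and 21.8% higher. Cxcl12, the chemokine that holds neutrophils in marrow, ran from 12.0 to 47.1 scaled FPKM in NP vehicle and from 237 to 408 in AF vehicle, a difference of -3.52 (limma adjusted p = 1.04e-05). Csf1, a growth factor for macrophages, differed by -1.92 and the cytokine Tnf by -1.84. The 3 of 14 called higher are a share near that background. They were Tlr4, higher by 0.67 and Ager, which encodes RAGE, by 0.55, both receptors of calprotectin, and Lrp1, an endocytic receptor that takes up lactoferrin, by 0.62 (limma adjusted p = 0.000855, 0.0218 and 0.00552). Tlr4 was at 38.1 to 47.7 scaled FPKM in NP vehicle and 21.6 to 32.1 in AF vehicle. Other receptors of the list did not share this direction: Cd36, a scavenger receptor, was called lower, by -0.92 (limma adjusted p = 0.0165), and Slc22a17, reported as a receptor of lipocalin 2, had means of 5.80 scaled FPKM in NP vehicle and 5.93 in AF vehicle (limma adjusted p = 0.9943). After MDL-800 Tlr4 and Lrp1 were again called higher in NP (0.69 and 1.03; 25.6% of all genes were), and Ager was not (0.54; limma adjusted p = 0.0618). With upper-quartile scaling the median of all genes moved from -0.08 to 0.22, a shift toward higher values in NP. No gene of these lists was called for treatment in either tissue.

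**Figure D5:**
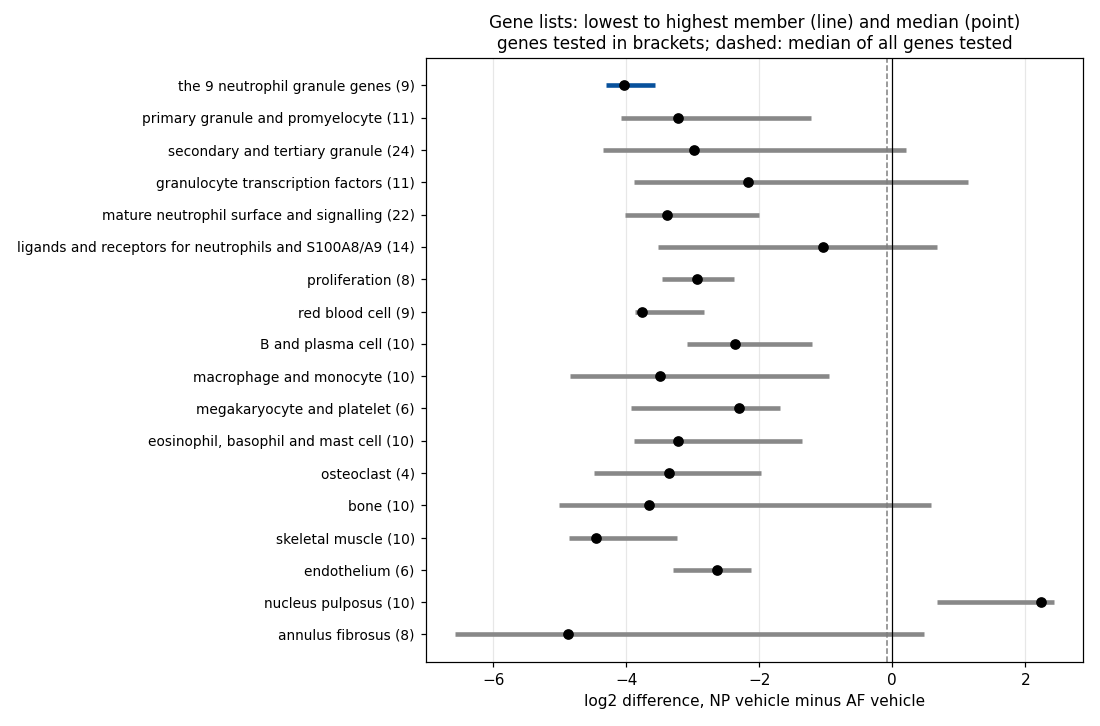
Log2 difference between NP vehicle and AF vehicle for the 9 granule genes and for other gene lists: the line runs from the lowest to the highest gene tested, the point is the median, and the dashed line the median of all genes tested. The granule genes lie between -4.30 and -3.56, and overlap the ranges of the red blood cell, macrophage and skeletal muscle lists.

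Markers of other cells moved with the granule genes between the tissues. Called lower in NP vehicle were 9 of 9 red blood cell genes (median -3.77) and 10 of 10 macrophage genes. So were 10 of 10 B and plasma cell genes and 10 of 10 eosinophil, basophil and mast cell genes. Also called lower were 6 of 6 megakaryocyte, 6 of 6 endothelial and 9 of 10 bone genes. Skeletal muscle genes were called lower in 10 of 10 (median -4.45) and tested osteoclast genes in 4 of 4 (median -3.35). Of all genes tested 33.9% were called lower. Summed red blood cell markers were 49.2 to 186 scaled FPKM in NP vehicle, 30.1 to 219.8 in NP MDL-800, 663 to 2140 in AF vehicle and 625 to 3335 in AF MDL-800. Summed B and plasma cell markers were 13.9 to 54.3, 4.23 to 21.3, 122 to 312 and 155 to 340.1 in these groups. No defining marker of these cells was at 0 in every library of a group, in NP or in AF. Their part in the tissue difference of the granule genes, and that of marrow taken with the disc, was not tested.

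Genes outside the 9 that were most like them in AF were picked by Pearson's r with the members' mean over 10 libraries, centred on the group. They were Pglyrp1 (0.996), encoding an antibacterial peptidoglycan-binding granule protein, Rac2 (0.995), a GTPase of blood cells, Pygl (0.995), the liver-type glycogen phosphorylase, Trem3 (0.995), Ncf1 (0.994), a subunit of the NADPH oxidase, and 4930438A08Rik (0.994). These r are a description: the libraries share depth and cell content, and the genes were picked for a high r. Pygl differed from the rest in tissue level, with a mean of 55.5 scaled FPKM in NP and 82.9 in AF, whereas Pglyrp1 was at 12.1 and 158 and Rac2 at 6.17 and 85.1.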

How the data were processed

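RNA was extracted from dissected NP and AF, depleted of ribosomal RNA and made into stranded libraries from 50 ng with 14 PCR cycles, per the labels' protocols. The authors deposited FPKM values with 2 decimals for 51789 genes, and reads were aligned with STAR 2.7.11b to mm10, per the submitters' processing notes. The program that made the FPKM values, its annotation and its handling of shared reads are not given in the sources used here. Depth is not given; the estimate rests on the steps that 6647 genes with 1 exon make at low FPKM, and in each library 81.6% to 87.4% of these values lay on a step (tolerance 0.2 reads).

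Each library was scaled by its median ratio over 11308 genes, and a gene was kept if 5 or more of the 20 libraries had it at 1 FPKM or above. Groups were compared with limma 3.58.1 in R 4.3.3 (eBayes with trend, only the 2 groups in the fit; all 4 for the interaction), two-sided. The + 1 understates changes of low genes. Exact and 100000-fold permutation tests, two-sided, used Python 3.11.15 with scipy 1.17.1. Gene positions came from GENCODE M21 (GRCm38, the same assembly as mm10). In simulated data a log2 change of 1 was given to 200 of 16383 genes, of which limma found 69% at the spread of NP vehicle and 63.5% at that of AF vehicle. These genes were drawn from all genes tested, whose median SD of log2 values was 0.22 in NP vehicle and 0.27 in AF vehicle. The members varied more, with SDs of at least 1.57 and 0.61 in these groups, so the shares found do not apply to them. Alternatives were other pseudocounts, filters, scalings and fits and leaving out each library; leaving libraries out of the correlations was added after seeing the data. The members, lists and ratios were chosen with earlier results of these data known. Every member was named, and of each other granulocyte list in each direction the 3 called genes of lowest p. The 6 other genes with the highest r to the members' mean in AF were named too. Beyond that rule, genes described as chosen after their values were seen, Ly6g, Anxa1, Cd36, Slc22a17, Cebpd, Pygl's levels and the genes of the closing observations were added with their values in view. The listed markers Ahsp and Tbxt were not found under those symbols and were not used here.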

Additional observations from a re-analysis of the deposited data

Results flagged for a closer look

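In groups of 5 libraries, the highest or lowest library was set against the others by Dixon's ratio of its gap to the whole range (limit 0.71), over 68 groups of values, of which chance picks out about 1 in 20, or 3.4; 5 were found. Scaled FPKM and ratios were used as they are, and on the log2 scale of the tests 3 of the 5 passed the limit. In NP vehicle, library 6 stood apart for both primary granule genes in scaled FPKM but not in log2 values (0.416 for Elane and 0.353 for Mpo). Elane was at 47.9 scaled FPKM there and at 12.6 in the next library (ratio 0.757), and Mpo was at 77.8 against 23.7 (ratio 0.713). The summed eosinophil, basophil and mast cell markers of that library were 386 scaled FPKM, also the highest in NP. So were its sums of the members (3305), macrophage (192), B and plasma cell (54.3), megakaryocyte (133.6) and proliferation genes (79.6). Lists for which it was not the highest in NP included those of red blood cells, endothelium, bone and skeletal muscle.

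The ratio Camp over S100a8 was lowest in AF vehicle library 12, at 0.0621 against 0.0989 in the next (0.764). In AF MDL-800 library 29 was highest with Elane over S100a8 at 0.105 against 0.0339 (0.861) and Mpo over S100a8 at 0.176 against 0.0546 (0.898). These 3 are the ones past the limit on the log2 scale, at 0.811, 0.734 and 0.801.

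The treatment difference of Lcn2 over S100a8 differed between NP and AF by 0.84 on the log2 scale (exact permutation p = 0.0377, unadjusted, for a ratio picked after the values were seen). That test assumes no treatment difference in either tissue, so it cannot show that the effects differ.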

How the results depend on the processing

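The count of members called was 9, 9, 0, 0 and 0 (NP against AF in vehicle and in MDL-800, treatment in NP, treatment in AF, interaction) under every alternative run and with each library left out. Member differences between tissues kept their sign and call in all 378 values computed. Genes called for treatment in NP, 41 here, were 16 without a filter, 74 with 1 FPKM in at least 10 libraries, 18 without scaling and 4 with all 4 groups in the fit. With single libraries left out they were 2 (without NP vehicle library 3 or NP MDL-800 library 22) to 189 (without NP vehicle library 6); the cause was not tested. Genes called for treatment in AF were 0 to 1 and for the interaction 0 to 1 with a library left out. With upper-quartile scaling 6474 of 10527 called genes were higher in NP vehicle, against 3577 of 9127, and 6866 of 11326 in NP MDL-800, against 4188 of 10290; with quantile normalization 6309 of 10506 and 6805 of 11349.

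Treatment differences of members, none of them called, changed sign as follows on the log2 scale. In NP, Camp was -0.0036 with upper-quartile scaling, -0.0155 with quantile normalization and -0.12 with array weights, and Ltf -0.0687 with array weights. In AF, quantile normalization gave S100a8 -0.10 and Ltf -0.0073, and array weights gave S100a8 -0.0925, Ltf -0.17, Camp -0.0076, Lcn2 -0.0589 and Retnlg -0.0604. With a library left out, the treatment difference in NP ran over these ranges: Camp -0.55 to 0.57, Elane -0.0067 to 1.10, Ltf -0.46 to 0.61, Mpo -0.24 to 0.94, Ngp -0.47 to 0.51, Retnlg -0.62 to 0.44, S100a8 -0.64 to 0.32 and S100a9 -0.57 to 0.35. In AF the ranges were Camp -0.22 to 0.57, Lcn2 -0.20 to 0.47, Ltf -0.29 to 0.31, Ngp -0.14 to 0.47, Retnlg -0.21 to 0.36, S100a8 -0.27 to 0.32 and S100a9 -0.16 to 0.46. Those of the interaction were Camp -0.70 to 0.42, Elane -0.83 to 0.28, Lcn2 -0.0137 to 1.11, Ltf -0.47 to 0.59, Mpo -0.98 to 0.21, Ngp -0.66 to 0.32, Retnlg -0.71 to 0.34, S100a8 -0.71 to 0.24 and S100a9 -0.77 to 0.15.

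The meaning of the header numbers is not stated, so they were not taken as pairing the libraries. Same-number pairs of deviations had r from -0.18 to 0.29 (3 of 8 over 0.1), and 2 of 8 NP libraries were closest to their own number. Pairs of unlike number within a treatment had r from -0.37 to 0.33 (10 of 42 over 0.1). Such r cannot show whether an NP and an AF library came from the same mouse, since the content of the dissected tissues also varies. A fit with this replicate block, added after the headers were seen, called 9, 9 and 0 members and 8783, 7857 and 0 genes for vehicle, MDL-800 and the interaction. In MDL-800 only header numbers 36, 37 and 39 are shared by NP and AF. The other MDL-800 libraries add nothing to this fit, so its MDL-800 and interaction values do not rest on the same libraries as the main fit. Under the block the interaction of Ltf was -0.62 and that of Lcn2 -0.21, both of opposite sign. The lowest member values, about 14.8 reads for Elane and 32.9 for Retnlg, limit the precision of ratios in NP.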

Other observations

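The column headers carry a number that 8 NP and AF libraries share within a treatment, and the sources used here do not say what it stands for. Over these 8 pairs, AF over NP for S100a8 ran from 5.56 (header number 13 of vehicle) to 83.3 (header number 37 of MDL-800), with a median of 18.1. Mpo ran from 4.23 to 90.1 with a median of 17.5. The NP library with the lowest S100a8, MDL-800 library 20 at 71.1 scaled FPKM, shares its number with AF MDL-800 library 28, at 5923.

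Of the chemoattractant and cytokine genes, Cxcl3, Csf2 and Il17a were listed at 0 in all 10 NP libraries. In AF, Il17a was listed at 0 in 4 of 5 vehicle and 5 of 5 MDL-800 libraries, Csf2 in 2 of 5 of each group and Cxcl3 in 0 of 5 and 1 of 5. Cxcl1, a neutrophil-attracting chemokine, was listed at 0 in 2 of 5 NP vehicle and 4 of 5 NP MDL-800 libraries. In AF, Cxcl1 ran from 0.366 to 3.70 scaled FPKM in vehicle and from 2.71 to 12.7 in MDL-800, and its difference did not pass the test.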
